A study of Mus musculus with 6 samples.

Results

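A set of genes of cholesterol synthesis and sterol response was followed in mouse hearts with and without conditional deletion of Ythdc1. The members, 7 of the 54532 genes in the deposited table, were taken by gene symbol: Hmgcs1, Idi1, Fdft1, Sqle, Lss and Cyp51, which encode enzymes of the pathway, and Srebf2, which encodes a transcription factor that controls it. Ythdc1 encodes a nuclear reader of N6-methyladenosine, a modified base of messenger RNA. The comparison set 3 libraries from Ythdc1flox/flox mice (flox control) against 3 libraries from Ythdc1-CKO mice (CKO), each from heart, after 15 days of normal chow. The labels do not name the promoter or cell type that drove the deletion, the deleted exons, or the age and sex of the animals, and they call the 3 animals of each group independent biological replicates. The deposited values are FPKM, read fragments per kilobase of exon divided by a factor for each library. They allow levels to be set against each other per unit of gene length. The 3 values of a group are always given in the order of replicates 1, 2 and 3.

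Cholesterol is built from acetyl-CoA. The early, mevalonate part of the pathway makes the activated isoprene units, which also feed coenzyme Q, dolichol and protein prenylation. The later part joins them into squalene and closes and trims the sterol rings. When sterols in the endoplasmic reticulum are low, the membrane-bound factor encoded by Srebf2 is carried by Scap to the Golgi, cut there, and released to raise transcription of these enzymes. Adult heart muscle takes up much of its cholesterol from lipoproteins in addition to making its own.

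Between 17434296 and 19360428 reads per library lay behind the deposited values. The factor that scaled each library differed from its total of reads. It was 19457600 in CKO 2, with 17872221 reads, and 18120300 in CKO 3, with 19360428 reads. Over the 6 libraries the factor ran from 16907000 to 19934400, and how it was set is not given in the sources used here. The 10 cardiomyocyte markers examined were all above 1 FPKM in the mean, whereas all 8 adipocyte and all 6 hepatocyte markers, from cell types with strong lipid synthesis, were below 1 FPKM. Ythdc1 itself stood at 0.607 times the control level in CKO hearts (limma adjusted p = 0.015), with no overlap between the groups. That value sums all its exons, deleted or not, and its call was lost without flox control 1, flox control 3 or CKO 3 (limma adjusted p = 0.0707, 0.0637 and 0.0535), with every library rescaled to the same FPKM sum (0.0888), and with the replicate number as a block (0.0542). CKO 3 held 12.4 FPKM of Xist and 0.350 FPKM of the Y-linked gene Ddx3y, whereas the other 5 libraries held at most 0.0155 FPKM of Xist and at least 10.8 FPKM of Ddx3y. CKO 3 therefore carried the sex-linked expression of a female and the others that of males. In bulk tissue, fewer cells of a type and less RNA per cell cannot be told apart.

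Srebf2 and its relatives are known to act through short sequence elements near the start sites of their targets. Windows from 250 bases before to 50 after the RefSeq start site (build GRCm38.p6) were found for 5 of the 7 genes: Hmgcs1, Idi1, Lss, Cyp51 and Srebf2. The 8 letters TCACNCCA, the core of the classical sterol response element, were found on the gene's own strand in 2 of them, Hmgcs1 and Srebf2, when both strands were searched. Of all 32851 promoter windows, 4.36% held them. The stretches of 60 bases around them are shown because Hmgcs1 is the most abundant enzyme of the set and Srebf2 its regulator, with the match in capitals:
Hmgcs1, chr13:119690188-119690247, plus strand: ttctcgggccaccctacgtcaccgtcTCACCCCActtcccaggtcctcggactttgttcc
Srebf2, chr15:82147081-82147140, plus strand: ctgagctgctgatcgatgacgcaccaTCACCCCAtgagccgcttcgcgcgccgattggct

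In Hmgcs1 the match began 137 bases before the start site and in Srebf2 162 bases before it. The Hmgcs1 match extended to the longer form TCACNCCAC, which contains the shorter one and was found in 1.24% of all windows. CCAAT, the box bound by NF-Y, a usual partner of sterol-regulated factors, was found in 5 of the 5 windows and in 37.4% of all. GGGCGG, the GC box bound by Sp1, was likewise found in 5 of 5 and in 35.7% of all. CACGTG, an E-box, was found in 0 of 5 and in 7.15% of all. Such matches are letters in a window, not measured binding.

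None of the 7 genes was called changed in CKO hearts. Hmgcs1, Fdft1, Cyp51 and Srebf2 averaged 1 FPKM or more across all 6 hearts and were tested among 12144 genes, of which 11.2% were called (limma on log2(FPKM + 1), Benjamini-Hochberg adjusted p under 0.05). Of these 4 genes 0 were called, 0 had an unadjusted p under 0.05, and limma-voom on the recovered reads also called 0 of them, with 0 at an unadjusted p under 0.05. Idi1, Sqle and Lss lay below that mean and were not tested there. With no filter on low values, 0 of the 7 genes were called, against 2.95% of 27031 genes called. Of the 7, 1, Idi1, had an unadjusted p under 0.05, and the share of all genes at that unadjusted level was not counted. Limma-voom without the filter, a choice made after the data were seen, gave the same 2 counts. Without CKO 3, whose sex-linked expression differed, the log2 fold changes were -0.16 for Hmgcs1, -0.13 for Fdft1, -0.026 for Cyp51 and 0.047 for Srebf2, and none was called (limma adjusted p 0.563 to 0.934).

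By length-corrected level, Hmgcs1 was the most abundant member, with a mean of 10.3 FPKM over the 6 libraries, and no library of it overlapped the range of another member. Fdft1 (mean 5.74 FPKM) and Srebf2 (5.38 FPKM) followed with ranges that overlapped each other. Cyp51 came next at a mean of 2.42 FPKM, clear of its neighbours on both sides. Idi1 (0.957 FPKM) and Sqle (0.941 FPKM) overlapped and sat just under the testing threshold of 1 FPKM, and Lss was lowest at 0.380 FPKM, below every Sqle value but within reach of Idi1 in CKO 1. The deposited lengths are those of all annotated exons of a gene, which for Lss amount to 10787 bases against 4667 in its longest protein-coding transcript. Divided by the longest protein-coding transcript instead, mean levels were 13.6 for Hmgcs1, 7.62 for Srebf2, 6.56 for Fdft1, 2.71 for Cyp51, 1.89 for Sqle, 1.11 for Idi1 and 0.878 for Lss, so Srebf2 passed Fdft1 and Sqle passed Idi1 in the order.

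**Figure D1:**
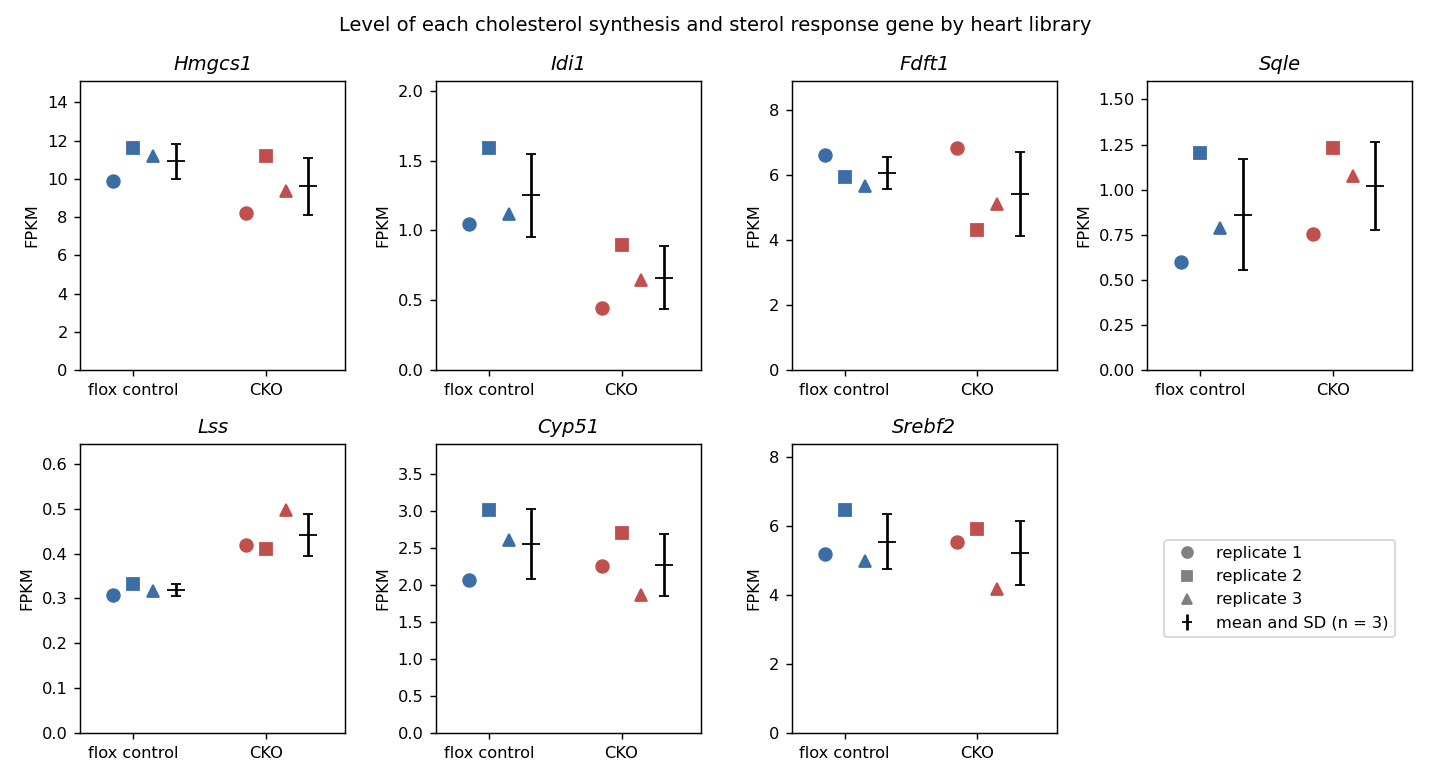
FPKM (y axis, from 0, with its own scale for each gene) of the 7 genes in 3 flox control (blue) and 3 CKO (red) heart libraries, with symbols for the replicate number and black bars for the mean and SD. Groups overlapped in 5 genes, while every CKO library lay below every control for Idi1 and above every control for Lss.

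Hmgcs1, which encodes the cytosolic synthase that condenses acetyl-CoA and acetoacetyl-CoA into HMG-CoA, lies on GRCm38 chromosome 13 (119690379 to 119708260, plus strand, ENSMUSG00000093930). Its level was 9.90, 11.6 and 11.2 FPKM in the controls and 8.24, 11.2 and 9.37 FPKM in the CKO hearts. CKO 2 lay within the control range and the other 2 CKO libraries below it. Group means were 10.9 ± 0.899 and 9.60 ± 1.49 FPKM (SD, n = 3 each), from 679 to 1026 reads per library. The log2 fold change was -0.17 (SE 0.12, limma adjusted p = 0.414). Its 95% interval ran from 0.721-fold to 1.09-fold on the scale of FPKM + 1.

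Idi1, which encodes the isomerase that interconverts the activated isoprene units, lies on chromosome 13 (8885501 to 8892451, plus strand, ENSMUSG00000058258). Its level was 1.05, 1.59 and 1.12 FPKM in the controls and 0.445, 0.894 and 0.646 FPKM in the CKO hearts. Every CKO library was below every control. Groups did not overlap in 2 of the 7 genes, Idi1 and Lss, against 22.5% of the 27031 genes with any reads (11.5% lower and 11% higher) and 23.7% of the genes averaging 0.25 to 1 FPKM. CKO hearts held 0.529 times the control mean (1.25 ± 0.297 and 0.662 ± 0.225 FPKM, SD, n = 3 each), the largest relative difference among the 7 genes. These values rest on few reads, 238 over the 3 controls and 130 over the 3 CKO libraries, with 28 in CKO 1, where counting error alone is 18.9% of the value.

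An exact two-sided permutation test on the Idi1 values gave p = 0.1, the smallest that 3 against 3 libraries allow. With no filter on low values its log2 fold change was -0.44 (SE 0.16) and did not pass (limma adjusted p = 0.219, unadjusted p = 0.03). On recovered reads, where no pseudocount of 1 FPKM compresses low values, the log2 fold change was -0.93 with a 95% interval from -1.65 to -0.21 (limma-voom adjusted p = 0.144). Idi1 has 2 processed pseudogenes whose transcripts are at least 95% identical to it over at least 150 bases, Gm13502 and Gm35570, at means of 0.122 and 0 FPKM. How the counting treated reads that match a pseudogene as well is not given in the sources used here, so the Idi1 level is uncertain. Idi2, the neighbouring paralog, was listed at 0 in all 6 libraries.

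Of the sterol-forming enzymes, Fdft1 encodes squalene synthase, the first enzyme committed to sterols, and lies on chromosome 14 (63145150 to 63179578, minus strand, ENSMUSG00000021273). Its level was 6.60, 5.94 and 5.65 FPKM in the controls and 6.83, 4.30 and 5.12 FPKM in the CKO hearts. CKO 1 was the highest and CKO 2 the lowest of all 6 libraries, so the CKO values enclosed the control values. Means were 6.06 ± 0.490 and 5.42 ± 1.29 FPKM (SD, n = 3 each), with a log2 fold change of -0.16 (SE 0.15, limma adjusted p = 0.563). Its exons share 774 bases with those of Ctsb, a cathepsin gene on the opposite strand at a mean of 86.0 FPKM. Strand marking is not described in the labels, and without it reads from these bases cannot be told apart, so the Fdft1 level is uncertain. Ctsb stood at 78.6, 89.0 and 69.2 FPKM in the controls and 95.2, 89.3 and 94.8 FPKM in the CKO hearts (limma adjusted p = 0.252), and its part in the Fdft1 values was not tested.

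Sqle encodes squalene epoxidase, a rate-limiting step after squalene, and lies on chromosome 15 (59315077 to 59331192, plus strand, ENSMUSG00000022351). Its level was 0.597, 1.20 and 0.787 FPKM in the controls and 0.754, 1.23 and 1.07 FPKM in the CKO hearts. The groups overlapped almost completely, and the highest control was 2.01 times the lowest control. Means were 0.862 ± 0.309 and 1.02 ± 0.244 FPKM (SD, n = 3 each), from 56 to 133 reads per library. With no filter the log2 fold change was 0.12 (SE 0.17, limma adjusted p = 0.738), and on recovered reads its 95% interval ran from 0.758-fold to 1.94-fold, too wide to tell a decrease from an increase.

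Lss encodes lanosterol synthase, which closes the sterol rings, and lies on chromosome 10 (76531588 to 76557138, plus strand, ENSMUSG00000033105). Its level was 0.307, 0.333 and 0.316 FPKM in the controls and 0.419, 0.410 and 0.496 FPKM in the CKO hearts. Every CKO library was above every control. The mean was 1.39 times the control (0.319 ± 0.0129 and 0.442 ± 0.0476 FPKM, SD, n = 3 each), from 187 reads over the controls and 264 over the CKO libraries. The exact two-sided permutation p was 0.1, again the smallest possible. With no filter Lss did not pass (log2 fold change 0.13, SE 0.06, limma adjusted p = 0.336), nor on recovered reads (0.46, 95% interval -0.04 to 0.96, limma-voom adjusted p = 0.322).

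Cyp51 encodes lanosterol 14-alpha-demethylase, the cytochrome P450 that starts trimming the first sterol, and lies on chromosome 5 (4081145 to 4104746, minus strand, ENSMUSG00000001467). Its level was 2.06, 3.00 and 2.60 FPKM in the controls and 2.26, 2.70 and 1.86 FPKM in the CKO hearts. CKO 1 and CKO 2 lay inside the control range and CKO 3 just below it. The log2 fold change was -0.12 (SE 0.14, limma adjusted p = 0.647), with means of 2.56 ± 0.473 and 2.27 ± 0.419 FPKM (SD, n = 3 each) and a 95% interval of 0.727-fold to 1.17-fold on the scale of FPKM + 1. Its exons share 166 bases with Akap9 on the opposite strand, a gene at a mean of 1.87 FPKM, which leaves a small part of its reads uncertain.

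Srebf2, the regulator, lies on chromosome 15 (82147181 to 82205379, plus strand, ENSMUSG00000022463). Its level was 5.20, 6.45 and 4.99 FPKM in the controls and 5.55, 5.92 and 4.18 FPKM in the CKO hearts. CKO 1 and CKO 2 were inside the control range and CKO 3 below it. Means were 5.55 ± 0.790 and 5.22 ± 0.918 FPKM (SD, n = 3 each), from 544 to 828 reads per library. The log2 fold change was -0.08 (SE 0.14, limma adjusted p = 0.767), the smallest of the 4 tested members, and its sign turned without flox control 2 (0.018) or CKO 3 (0.047). The 95% interval was 0.748-fold to 1.20-fold on the scale of FPKM + 1. Mir33, a microRNA gene annotated within the span of Srebf2, was listed at 0 in every library, in a protocol that selects polyadenylated RNA. Transcript level says nothing of how much of the protein was cut and active.

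The rest of the pathway showed the same lack of calls. Of 20 genes described from acetyl-CoA to cholesterol, members included, 15 averaged 1 FPKM or more. Of these, 0 were called (limma), against 11.2% of all genes tested, with 3 at an unadjusted p under 0.05, all lower. Limma-voom called 0, with 4 at an unadjusted p under 0.05. The share of all genes at that unadjusted level was not counted, here or for the lists below, so no excess can be read from these counts. Fold changes were negative in 13 of the 15, with a median of -0.17 on the log2 scale, where all 12144 genes tested had a median of 0.01 and 48.9% of them were negative. Cardiomyocyte markers had fold changes of the same sign, negative in 9 of 10 with a median of -0.29 and 1 called lower, and summed to 19166 to 23132 FPKM in the controls and 15159 to 19902 FPKM in the CKO hearts. Medians were also negative for endothelial (-0.13), mural (-0.20), Schwann and neural (-0.67) and atrial cardiomyocyte markers (-1.61). They were positive for fibroblast (0.14) and macrophage markers (0.20). The part of any of these cell types in the pathway's fold changes was not tested.

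In the mevalonate part, Pmvk, the phosphomevalonate kinase gene, came closest to the threshold of the 15, at 6.69 ± 0.544 and 4.75 ± 0.778 FPKM (SD, n = 3 each, log2 fold change -0.43, limma adjusted p = 0.067). It passed without CKO 2 (limma adjusted p = 0.0421). Acat2, which encodes an acetoacetyl-CoA thiolase, measured 2.13 ± 0.537 and 1.43 ± 0.511 FPKM (limma adjusted p = 0.285), and near-identical stretches in Acat3 and Tcp1 leave its level uncertain. Fdps, between Idi1 and Fdft1 in the pathway, was listed at only 0.0397 to 0.0855 FPKM, from 3 to 7 reads. It shares 1124 exonic bases with the annotated gene Gm43738 on the same strand and has 4 processed pseudogenes at least 95% identical, so that value cannot be read as its expression.

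In the later part, Lbr, which encodes a nuclear envelope protein with sterol reductase activity, measured 7.82 ± 0.536 and 5.91 ± 1.02 FPKM (SD, n = 3 each, limma adjusted p = 0.123). Sc5d, a sterol desaturase gene, measured 3.08 ± 0.311 and 2.32 ± 0.306 FPKM (limma adjusted p = 0.127). In both genes, as in Pmvk and Dhcr7, every CKO library lay below every control, which held for 17.4% of the genes tested (34.3% in either direction). In Ebp every CKO library lay above every control, and in the other tested pathway genes the groups overlapped. Dhcr7 and Ebp were named after their values were seen.

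**Figure D2:**
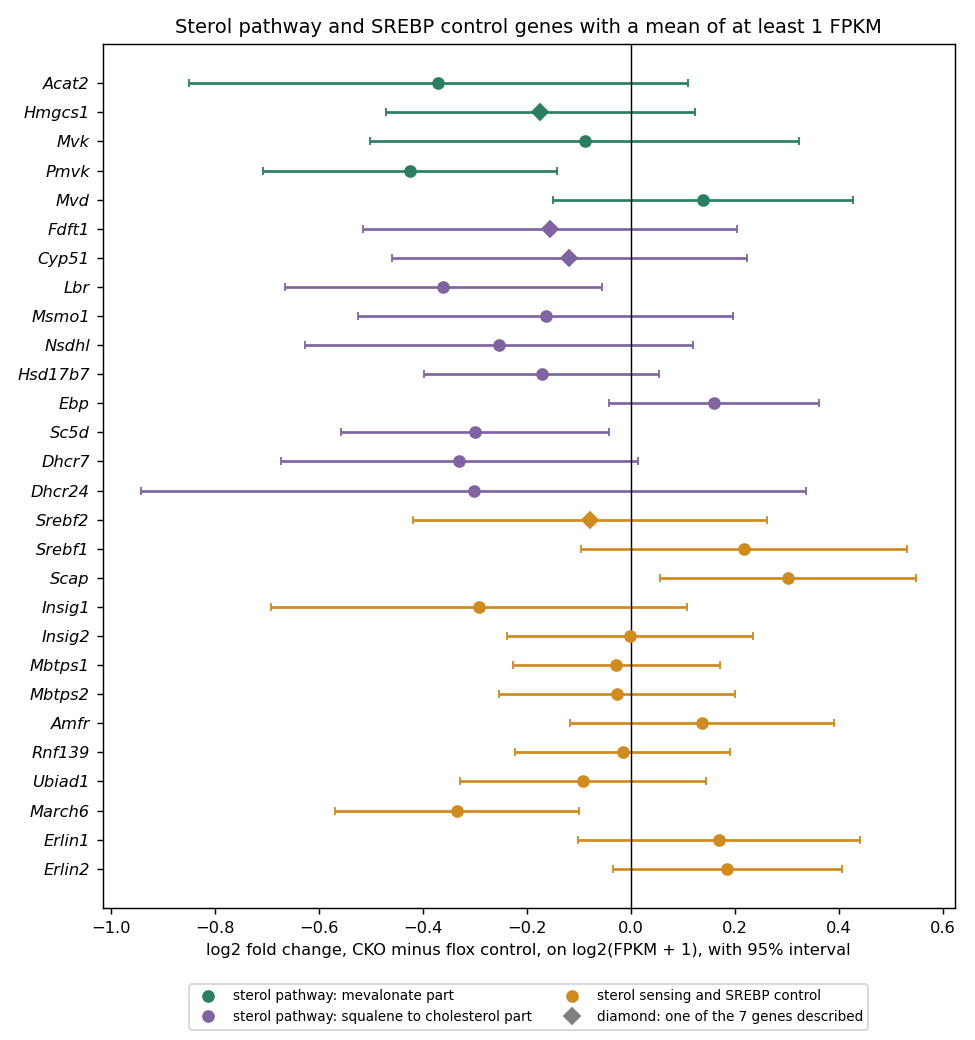
Log2 fold change of CKO over flox control on log2(FPKM + 1) (x axis) with its 95% interval for each tested gene of the sterol pathway and of SREBP control (y axis), with diamonds for members. All 4 members' intervals include 0, and 13 of the 15 pathway genes lie left of 0 without a call.

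Genes that sense sterols and control the Srebf2 protein did not pass either. Of 13 measured genes, 0 were called (limma), against 11.2% of all genes tested, with 2 at an unadjusted p under 0.05. Limma-voom also called 0, with 2 at that unadjusted level. Their median log2 fold change was -0.02. Insig1, whose product holds the Scap complex back when sterols are plentiful and whose own transcription follows Srebf2, stood at 4.63, 6.46 and 5.11 FPKM in the controls and 4.97, 4.59 and 3.19 FPKM in the CKO hearts (limma adjusted p = 0.311). Scap, the escort gene, measured 4.57 ± 0.397 and 5.88 ± 0.643 FPKM (SD, n = 3 each, limma adjusted p = 0.114) and March6, which encodes a ubiquitin ligase that degrades Sqle protein, 16.5 ± 1.15 and 12.9 ± 1.09 FPKM (limma adjusted p = 0.076). Srebf1, the paralog of Srebf2 that mainly drives fatty acid synthesis, measured 6.27 ± 1.10 and 7.40 ± 0.678 FPKM (limma adjusted p = 0.336), with 109 exonic bases shared with Rai1 on the opposite strand.

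The members also varied among animals of one genotype, a pattern described here after the values were seen. The libraries numbered 2 were high. Flox control 2 was the highest control in 6 of the 7 genes, all but Fdft1, as it was in 38.2% of the genes tested. CKO 2 was the highest CKO library in 5 of the 7, all but Fdft1 and Lss, as it was in 31% of the genes tested.

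Both held for 5 of the 7 genes: Hmgcs1, Idi1, Sqle, Cyp51 and Srebf2. Among genes tested, 11.8% had both libraries numbered 2 on top, and among the 27031 genes with any reads 8.77% did. In the 15 tested pathway genes it was 6. Nothing in the labels ties animals with the same number together.

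Deviations from the group means were compared between members as a description over 6 libraries. All genes of a library share its depth and scaling factor, and the part of this in the correlations was not tested. Of the 21 pairs of members, 12 were positively correlated, with a median of 0.30. All 6 pairs with Fdft1 were negative, and over the 15 pairs without it, a choice made after the values were seen, correlations ran from -0.61 to 0.96 with a median of 0.52. The highest was Idi1 with Sqle (0.96), followed by Hmgcs1 with Idi1 (0.89). Cyp51 and Srebf2 reached 0.83, and the 3 negative pairs without Fdft1 all involved Lss. Fdft1, whose exons overlap those of Ctsb, ran opposite to Hmgcs1 (-0.94), Idi1 (-0.75) and Sqle (-0.71). Flox control 2 held the highest summed macrophage markers of the controls, 310 FPKM against 156 and 214. CKO 1 held the highest of all, 903 FPKM against 188 and 127 in CKO 2 and CKO 3. CKO 2 held 14.4% of its reads in mitochondrially encoded genes, against 18.4% to 21% in the other libraries. The part of these differences in the levels of the members was not tested.

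**Figure D3:**
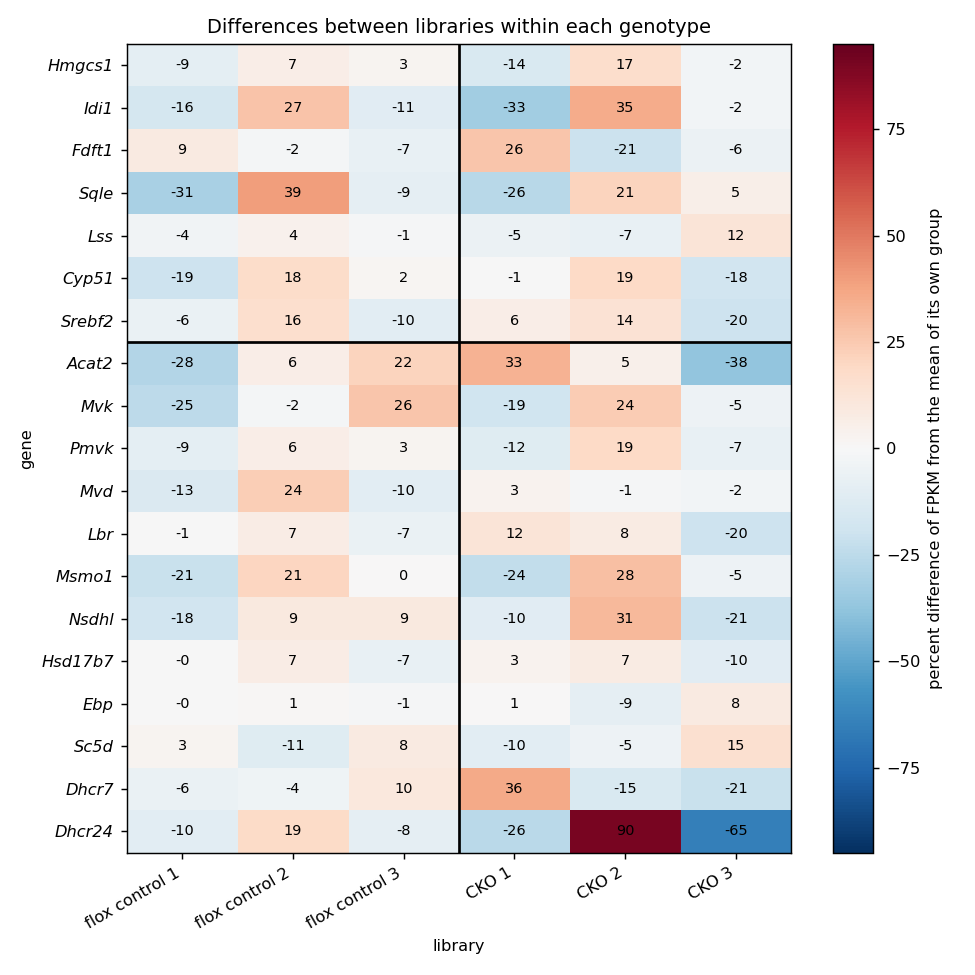
Percent difference of FPKM from the mean of the library's own group for the 7 members (above the black line) and the other tested genes of the sterol pathway (rows), by library (columns). In Hmgcs1, Idi1, Sqle, Cyp51 and Srebf2 the columns flox control 2 and CKO 2 are the highest of their groups, while Fdft1 is highest in flox control 1 and CKO 1.

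Over the 6 libraries, the tested genes outside the set whose log2(FPKM + 1) followed the mean standardized level of Hmgcs1, Fdft1, Cyp51 and Srebf2 most closely were Letmd1, Ebna1bp2, B4galt3, Lsm2 and Gm14719, with Pearson correlations of 0.98 to 0.996. The closest single gene was Dynlt3 for Hmgcs1 (0.99), Wbp11 for Idi1 (0.996), Idua for Fdft1 (0.98), Cdc42 for Sqle (0.98), Ssu72 for Lss (0.999), Nucks1 for Cyp51 (0.99) and Aurkb for Srebf2 (0.995). Each is the highest among all genes tested over 6 libraries and is given as a description. All genes of a library share its depth and scaling factor.

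Beyond synthesis, 2 genes of sterol uptake and transport rose, out of 11 tested, where 5.69% of all genes were called higher. Lrp1, which encodes a large endocytic receptor for lipoproteins and other ligands, stood at 9.61, 9.33 and 9.80 FPKM in the controls and 19.0, 18.1 and 16.9 FPKM in the CKO hearts, and rose 1.88-fold (log2 fold change 0.84, SE 0.08, limma adjusted p = 0.00486). Npc2, a lysosomal cholesterol carrier gene, rose 1.59-fold from 12.7 ± 0.418 to 20.3 ± 2.52 FPKM (limma adjusted p = 0.018). The count was 1 of 11, Lrp1, without any one of flox control 1, 2 or 3 or CKO 3. Npc2 then had limma adjusted p = 0.0761, 0.0546, 0.0705 and 0.0547. Gramd1b, which encodes a protein that moves cholesterol from the plasma membrane inward, measured 4.75 ± 0.447 and 3.41 ± 0.422 FPKM (limma adjusted p = 0.068). Lipa, the lysosomal acid lipase gene, measured 12.1 ± 1.32 and 15.0 ± 0.448 FPKM (limma adjusted p = 0.106). Fibroblast markers summed to 550 to 719 FPKM in controls and 581 to 846 FPKM in CKO libraries and macrophage markers to 156 to 310 and 127 to 903 FPKM, and their part in these 2 increases was not tested.

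Of 10 genes of LXR signalling, efflux and storage, some of which answer to high sterol, 0 were called (limma), against 11.2% of all genes tested. At an unadjusted p under 0.05 there were 3 (limma), all higher, and limma-voom called 0, with 4 at that unadjusted level. Mylip, which encodes a ubiquitin ligase induced by LXR, measured 7.98 ± 1.24 and 12.7 ± 2.75 FPKM (SD, n = 3 each, limma adjusted p = 0.0661), and Abcg1, a cholesterol exporter gene, 1.97 ± 0.289 and 3.18 ± 0.605 FPKM (limma adjusted p = 0.0694). Mylip passed with every library rescaled to the same FPKM sum (0.0297), Abcg1 without CKO 1 (0.0321) and Cyp27a1, an oxysterol-forming enzyme gene, without CKO 2 (0.0451). Nr1h3, which encodes LXR alpha, measured 2.19 ± 0.899 and 4.36 ± 1.43 FPKM with overlapping groups (log2 fold change 0.75, limma adjusted p = 0.114) and passed with the replicate number as a block (0.033). Cyp27a1 and Nr1h3 were named after their values were seen. The median log2 fold change of the 10 genes was 0.25. The list summed to 223 to 267 FPKM in the controls and to 508, 207 and 277 FPKM in CKO 1, 2 and 3. Macrophage markers were also highest in CKO 1, at 903 FPKM against 188 and 127 FPKM in CKO 2 and CKO 3. Their part in the levels of this list was not tested.

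Of 13 genes listed with fatty acid synthesis and desaturation, 2 fell, where 5.49% of all genes were called lower. Neither of these 2, Lpin1 and Mlxipl, encodes an enzyme of fatty acid synthesis or desaturation, and the other 11 were not called. Fold changes were negative in 8 of the 13 and positive in 5, with a median of -0.07 on the log2 scale. Lpin1, which encodes a phosphatidate phosphatase whose transcription is known to follow SREBP, fell from 14.3 ± 2.01 to 4.99 ± 1.09 FPKM (SD, n = 3 each, log2 fold change -1.36, limma adjusted p = 0.0067). Mlxipl, the carbohydrate-responsive factor ChREBP, fell from 7.43 ± 1.16 to 3.91 ± 0.644 FPKM (limma adjusted p = 0.0214), a call lost without flox control 1 (0.0825), flox control 2 (0.063), CKO 2 (0.0509) or CKO 3 (0.0545), each of which left 1 call. Fasn, the fatty acid synthase gene, measured 4.16 ± 1.12 and 2.30 ± 0.343 FPKM (limma adjusted p = 0.0598), and passed with limma-voom (0.0423). Acacb measured 31.9 ± 5.50 and 25.9 ± 3.66 FPKM (limma adjusted p = 0.299).

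Of 12 tested genes that make or use isoprenoids outside the sterol route, 2 fell, against the 5.49% of all genes called lower. Idi2, the remaining gene of that list, was not tested. Pdss2, a subunit gene of the enzyme that makes the coenzyme Q side chain, fell from 4.15 ± 0.241 to 2.40 ± 0.139 FPKM (SD, n = 3 each, log2 fold change -0.60, limma adjusted p = 0.0102). Fntb, the farnesyltransferase beta subunit gene, fell from 3.53 ± 0.320 to 2.19 ± 0.289 FPKM (limma adjusted p = 0.0302), and shares 257 exonic bases with Churc1, which leaves its level uncertain. Without flox control 1 neither was called (0.054 and 0.116), and Fntb lost its call without flox control 2 (0.0894), flox control 3 (0.0662), CKO 1 (0.0536) or CKO 2 (0.083). Coq2 measured 32.9 ± 2.41 and 23.6 ± 3.71 FPKM (limma adjusted p = 0.0736), and passed with every library rescaled to the same upper quartile (0.0462). Pggt1b, a protein prenyltransferase subunit gene, measured 3.56 ± 0.145 and 3.07 ± 0.389 FPKM (limma adjusted p = 0.313).

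**Figure D4:**
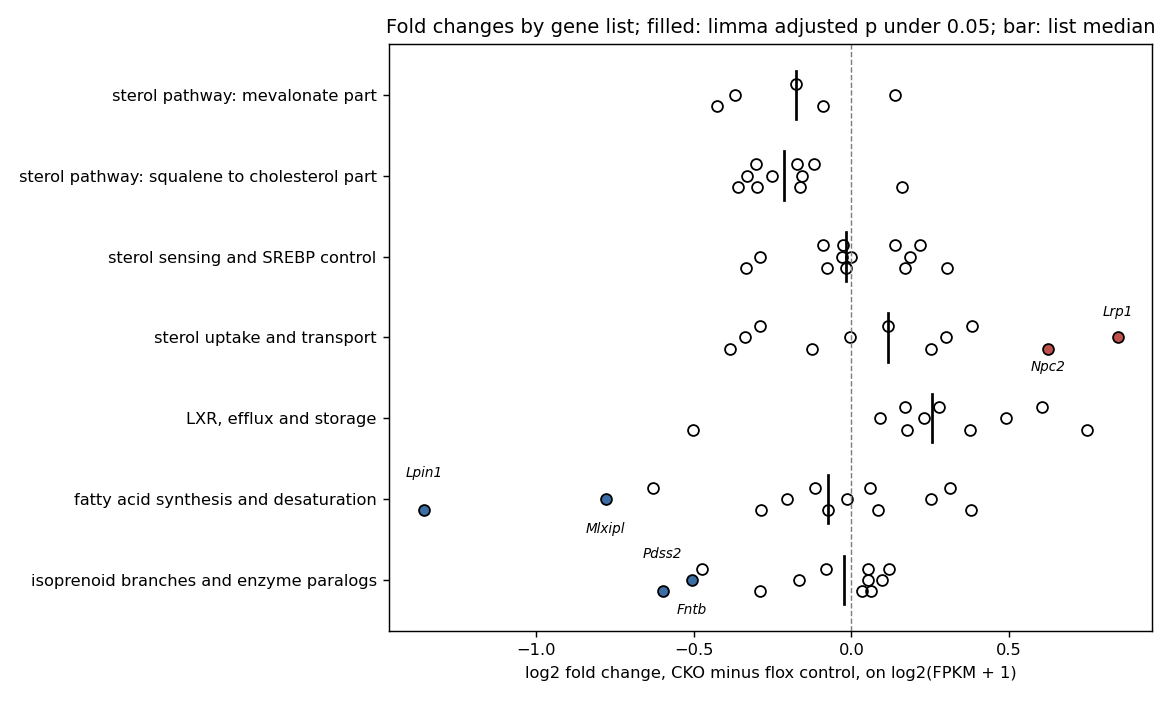
Log2 fold change of CKO over flox control on log2(FPKM + 1) (x axis) for each tested gene (circles) of 7 lists (y axis), filled red or blue where limma's adjusted p was under 0.05, with a bar at the list median. The lists that hold the members have no filled circle, while Lrp1 and Npc2 are filled to the right and Lpin1, Mlxipl, Pdss2 and Fntb to the left.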

How the data were processed

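Messenger RNA from 6 mouse hearts was measured as FPKM, 1 column per library, deposited by the authors. Per the submitters' processing notes, CASAVA, HISAT2 2.0.5, featureCounts 1.5.0-p3, DESeq2 1.20.0 and build GRCm38.p6 were used, and which step made the FPKM is not given in the sources used here. FPKM times gene length was a whole multiple of 1 step per library (tolerance 0.001), which gave back the reads. Samples were grouped by title. Genes averaging 1 FPKM or more were tested with limma 3.58.1 (R 4.3.3) on log2(FPKM + 1) with a variance trend, two-sided, adjusted by Benjamini-Hochberg over 12144 genes. The pseudocount understates changes of low genes. The procedure was run on simulated counts with changes larger than those of the tested members, in genes above the filter. That run does not bear on smaller changes or on Idi1, Sqle and Lss. Intervals cover 95%. Limma-voom on reads kept the deposited scaling. Overlapping exons and near copies came from GENCODE M21 (blastn 2.17.0). The members and gene lists were chosen with earlier results of these data known. Genes named are the members, up to 4 others per list with the smallest adjusted p (2 where none passed), Insig1, Srebf1, Ythdc1 and those of closest pattern; Fdps, Idi2, Mir33, Ctsb and the sex-linked genes were named after their values were seen. A few genes of the lists are not reported here and stay out of the list counts. Python 3.11.15 made tables and figures.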

Additional observations from a re-analysis of the deposited data

How the results depend on the processing

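Over 15 alternatives the log2 fold change of Hmgcs1 lay between -0.28 and -0.08 (limma adjusted p 0.2 to 0.785) and that of Fdft1 between -0.31 and -0.03 (0.133 to 0.927), and over 14 that of Cyp51 between -0.22 and -0.03 (0.451 to 0.934). Leaving out 1 library at a time, Srebf2 lay between -0.16 and 0.047, positive without flox control 2 (0.018) or CKO 3 (0.047), with no call. None of the 7 members was called in any alternative, planned or added, that tested it. Idi1, Sqle and Lss were tested only in the runs without the filter. Without the filter and with choices added after the data were seen, Idi1 lay between -0.93 and -0.33, Sqle between 0.019 and 0.28 and Lss between 0.10 and 0.46 over 18 settings, where 28 to 133 reads per library limit the precision. Several of these settings repeat a value, as each leave-one-out difference was listed both as a plain difference and from the fit without the filter. They also mix pseudocounts of 1 and 0.1 FPKM with limma-voom.

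Leaving out 1 library at a time, mevalonate genes called lower numbered 0 to 1, uptake genes called higher 1 to 2, LXR genes called higher 0 to 1, fatty acid genes called lower 1 to 2 and isoprenoid genes called lower 0 to 2, and all genes called numbered 160 to 807 higher and 155 to 683 lower, against 691 and 667, with both lowest counts without flox control 1. With no filter, 388 genes were called higher and 410 lower, with 1 fatty acid and 1 isoprenoid gene lower. With the same FPKM sum 424 genes were called lower, 1 LXR gene higher and 1 isoprenoid gene lower. With the filter at 5 FPKM 0 isoprenoid genes were lower, since Pdss2 and Fntb are not tested there.

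With the replicate number as a block, 367 genes were called higher and 348 lower, with 1 uptake and 1 LXR gene higher and 1 fatty acid and 1 isoprenoid gene lower. The numbers do not pair the animals by design, and deviations of same-numbered libraries correlated at 0.14, 0.06 and -0.01 over the genes tested. The block called none of the 7 members.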
